A study of Mus musculus with 6 samples.

Results

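The 10 genes described here encode the proteins that carry a signal inward from the Toll-like receptors: the adaptors Myd88, Tirap, Ticam1 and Ticam2, the interleukin-1 receptor-associated kinases Irak1 to Irak4, the ubiquitin ligase Traf6 and the inhibitor Tollip. They were chosen by gene symbol and matched to 10 of the 23154 Ensembl gene identifiers in the deposited table. All 10 passed the filter on low values (a mean of 10 or more over the libraries) and were among the 11201 genes tested.

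Poly(A) RNA was sequenced from 6 dishes of the macrophage-like mouse cell line RAW264.7. The NUR77 line was a stable line with a doxycycline-inducible construct (pINDUCER20b) for HA-tagged NUR77, the orphan nuclear receptor encoded by Nr4a1, and the GFP line carried the same inducible vector for green fluorescent protein. Both lines received doxycycline at 1 µg/mL for 18 hours from 24 hours after seeding, and each gave 3 libraries from separate dishes. The labels name no Toll-like receptor ligand or other stimulus, and cells without doxycycline were not analysed here. Each group is 1 stable line, so the transgene and any other difference between the lines cannot be told apart, and p-values rest on dish-to-dish spread within a line. In bulk RNA, fewer cells expressing a gene and less RNA per cell cannot be told apart.

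Levels are given as normalized reads (a gene's reads in every 10000000 reads assigned to genes), and libraries held 11199468 to 15929487 assigned reads. Each of the 10 genes had between 245 and 2401 reads in every library. Nr4a1 stood at 288.4, 314.2 and 296.8 normalized reads in the NUR77 libraries, against 170.0, 148.2 and 161.4 in the GFP libraries (log2 fold change 0.90, limma adjusted p = 5.5e-08), with reads of the mouse gene and of the transgene not separated. Of 10 macrophage markers 9 were tested, 5 fell, 2 rose and 2 did not pass. Lyz2 (2566 in the NUR77 line and 26664 in the GFP line), Mpeg1 (1019 in the NUR77 line and 16580 in the GFP line), Cd68, Csf1r and Adgre1 fell, while Itgam (9598 in the NUR77 line and 4224 in the GFP line) and Fcgr1 rose. Ptprc (4664 normalized reads on average in the NUR77 line and 4583 in the GFP line) and Spi1 (1190 in the NUR77 line and 1119 in the GFP line) did not pass, and Mertk was near 0 (0.563 in the NUR77 line and 1.09 in the GFP line). The 10 markers summed to 27537 to 28796 in the NUR77 libraries, against 72620 to 73852 in the GFP libraries. Markers of 8 other cell types were low, and some were higher in the NUR77 libraries. Their sums were 29.4 to 113 in the NUR77 line against 17.6 to 22.3 in the GFP line for 6 fibroblast genes, 13.5 to 40.2 against 4.18 to 6.91 for 6 neutrophil genes, 12.5 to 30.0 against 2.09 to 3.27 for 5 B cell genes, and 26.8 to 32.0 against 3.48 to 4.58 for 4 endothelial genes. Nearly all of the neutrophil, B cell and endothelial sums in the NUR77 line came from S100a8 (mean 25.7 against 3.91 in the GFP line), Cd79b (21.9 against 0.45) and Pecam1 (27.9 against 1.07). No other gene of the neutrophil, B cell and endothelial lists had a higher mean in the NUR77 line, and none had enough reads to be tested. The 6 T cell genes summed to 68.8 to 78.0 in the NUR77 line against 111 to 122 in the GFP line, nearly all of it Lck. The defining genes Cd3d, Cd3e, Cd3g, Ms4a1, Pax5, Ly6g, Camp, Pdgfra, Krt8, Cdh1, Krt5 and Alas2 had no read in any library. Epithelial and erythroid sums stayed at or below 0.893. NUR77 replicate 1 stood apart with 180 normalized reads of 8 skeletal muscle genes, where the other libraries had 37.3 to 44.6. The top of the fibroblast range was the same library, at 113 against 41.8 and 29.4 in the other NUR77 libraries. Those were also above the GFP range of 17.6 to 22.3. Without this library, the calls on all 10 genes were as given below. The part of these markers in the results was not tested.

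Toll-like receptors, and the receptors for interleukin-1 and interleukin-18, signal through a shared interaction domain on their cytosolic side. MyD88, brought to some receptors by the sorting adaptor TIRAP, assembles IRAK4 with IRAK1 and IRAK2, and these pass the signal to TRAF6, whose ubiquitin chains activate the kinases that switch on NF-kB and the MAP kinases. TRIF, encoded by Ticam1, serves Toll-like receptor 3 directly and Toll-like receptor 4 through the bridging adaptor TRAM, encoded by Ticam2, and leads to interferon regulatory factor 3 as well as NF-kB. IRAK-M, encoded by Irak3, and TOLLIP are known as brakes on the MyD88 route, IRAK-M chiefly in monocytes and macrophages.

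The DNA before the annotated starts is shown for the pair of genes that were higher in the NUR77 line and for Irak1, which was lower. Sequences are from RefSeq (GRCm38.p6), on the gene's own strand, and stop before the gene's first annotated exon. The Irak3 stretch is chr10:120202131-120202380 (minus strand), that of Ticam1 is chr17:56276787-56277017 (minus strand), and that of Irak1 is chrX:74023922-74024171 (minus strand). Capitals mark a match to the NF-kB element.
Irak3: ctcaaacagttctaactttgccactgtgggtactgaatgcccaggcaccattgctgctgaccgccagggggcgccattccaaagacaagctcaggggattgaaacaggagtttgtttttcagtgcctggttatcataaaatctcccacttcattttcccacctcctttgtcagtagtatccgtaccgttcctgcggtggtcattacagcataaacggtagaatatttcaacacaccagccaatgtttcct
Ticam1: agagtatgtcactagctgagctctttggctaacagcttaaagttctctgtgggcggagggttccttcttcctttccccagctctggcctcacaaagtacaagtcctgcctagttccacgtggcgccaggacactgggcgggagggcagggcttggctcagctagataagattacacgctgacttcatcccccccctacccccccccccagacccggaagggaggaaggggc
Irak1: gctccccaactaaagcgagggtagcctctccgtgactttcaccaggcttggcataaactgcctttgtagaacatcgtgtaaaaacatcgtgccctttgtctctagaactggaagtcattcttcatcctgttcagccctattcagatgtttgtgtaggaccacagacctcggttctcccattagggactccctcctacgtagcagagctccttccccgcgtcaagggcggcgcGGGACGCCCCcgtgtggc
Windows of 9 of the 10 genes were searched, with 12 starts in all. The gene of the bridging adaptor TRAM was not among them, so the matches below say nothing about it. The 250 bases before each start were searched on both strands; 5 of these windows (those of Myd88 and Tollip, both of Tirap and 1 of Irak3) lie wholly within the gene's longest annotated span, since transcription is annotated to start farther upstream as well. The NUR77 monomer element AAAGGTCA was in none of the 12 windows and in 1.34% of the 32851 windows of the whole table. Among the 12 windows, the NF-kB element was in those of Irak1 alone, before both of its starts. It was in 7.25% of all windows. The Irak1 match reads as a match on both strands, and the windows of its 2 starts largely overlap, so it is 1 site. GC content of the 12 windows ran from 47.6% to 68.4%, where the median of all windows was 52.4%. A match describes letters in these windows and nothing about binding.

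Of the 10 genes, 6 were lower in the NUR77 line, 2 were higher and 2 did not pass the test. Irak3 was 8.50-fold higher and Ticam1 2.12-fold higher. Ticam2, Irak1, Traf6, Tollip, Irak2 and Myd88 were lower by factors between 1.21 and 1.75 in their means. Tirap and Irak4 did not pass. The 2 rises and 6 falls were called by limma with Benjamini-Hochberg adjustment at 0.05, so that 8 of 10 were called, where 66.7% of all tested genes were called (38.4% higher, 28.3% lower). The same 8 had no overlap between the 3 NUR77 and the 3 GFP values, as did 70.6% of all tested genes. A change of 2-fold or more was called for 2 of the 10, against 13.9% of all tested genes. The share of called genes was thus near the background in a comparison where most genes differed. The median log2 fold change of the 10 genes was -0.39, and that of all tested genes was 0.06.

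**Figure D1:**
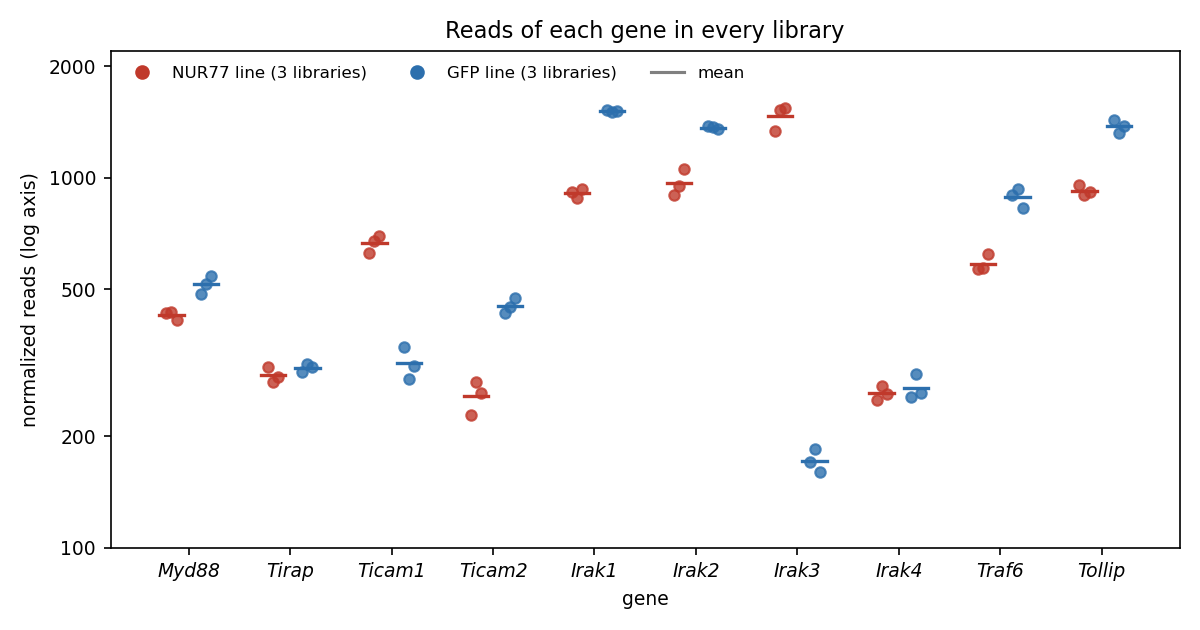
Normalized reads (log axis) of the 10 genes in each library, with the NUR77 line left of the GFP line for each gene; points are libraries and bars are means of 3. Irak3 lies between 1338.5 and 1543.4 in the NUR77 line and between 160.1 and 184.6 in the GFP line, while Tirap and Irak4 overlap.

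**Figure D2:**
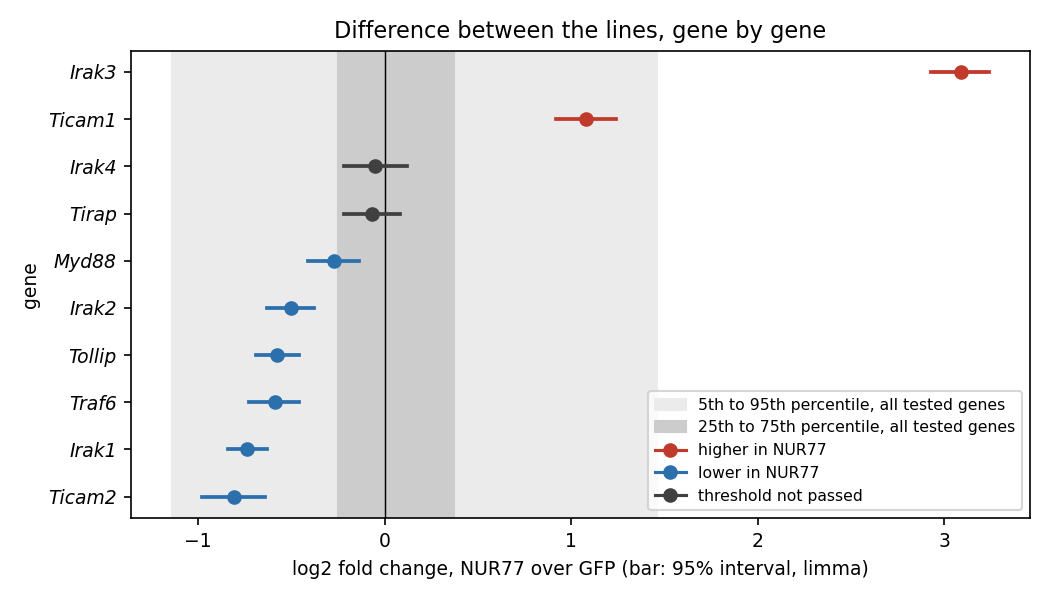
Log2 fold change of each gene, NUR77 over GFP, with its 95% interval from limma; grey bands show where all 11201 tested genes lie (5th to 95th percentile from -1.14 to 1.46, 25th to 75th from -0.25 to 0.37). Of the 10, Irak3 at 3.09 is outside the wide band.

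Among the adaptors, the TRIF gene moved against its bridging partner. Ticam1 (ENSMUSG00000047123, chromosome 17, 56269319 to 56276786, minus strand, mm10) had 626.8, 675.7 and 693.8 normalized reads in the NUR77 libraries, against 349.1, 285.0 and 310.5 in the GFP libraries. Every NUR77 library was above every GFP library. The means were 665 ± 34.6 in the NUR77 line and 315 ± 32.3 in the GFP line (SD, n = 3 each), a log2 fold change of 1.08 (SE 0.08, limma adjusted p = 1.6e-09). It ranked 1402 of the 11201 tested genes by the size of the change.

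Ticam2 (ENSMUSG00000056130, chromosome 18, 46557291 to 46574533, minus strand) fell. Its levels were 228.6, 280.1 and 261.7 normalized reads in the NUR77 libraries, against 432.0, 446.3 and 471.9 in the GFP libraries, with no overlap. The log2 fold change was -0.81 (SE 0.08, limma adjusted p = 1.3e-07), the largest fall among the 10 genes. The DNA before Ticam2 was not among the windows searched for the NUR77 and NF-kB elements. Its exons share 838 of 5792 bases (14.5%) with Tmed7 on the same strand, so reads there cannot be assigned to 1 gene with certainty. Tmed7 was at 2150 ± 167 in the NUR77 line and 2547 ± 89.4 in the GFP line (log2 fold change -0.25, limma adjusted p = 0.0012).

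Myd88, the adaptor used by nearly all Toll-like receptors, fell by a small amount. Myd88 (ENSMUSG00000032508, chromosome 9, 119335934 to 119341411, minus strand) had 429.5, 434.7 and 412.9 normalized reads in the NUR77 libraries, against 485.0, 516.7 and 543.8 in the GFP libraries. The NUR77 values were all below the GFP values, by a log2 fold change of -0.27 (SE 0.06, limma adjusted p = 0.0013). On the opposite strand, Acaa1a covers 290 of the 2576 exon bases of Myd88 (11.3%) and fell itself, at 187 ± 2.02 in the NUR77 line and 395 ± 9.06 in the GFP line (log2 fold change -1.07, limma adjusted p = 7.7e-10). Whether the counting used strand is not stated in the labels, so reads of the overlap cannot be told apart, and the part of Acaa1a in the fall of Myd88 was not tested.

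Tirap (ENSMUSG00000032041, chromosome 9, 35184551 to 35200291, minus strand), the sorting adaptor of Toll-like receptors 2 and 4, had 307.2, 280.1 and 289.6 normalized reads in the NUR77 libraries, against 297.6, 314.5 and 307.8 in the GFP libraries. The values of the lines overlapped. The fold was 0.953 with a 95% interval of 0.858 to 1.06 (log2 fold change -0.07, limma adjusted p = 0.41), so these libraries leave room for a fall of up to that lower bound and for a small rise. Srpr, on the opposite strand, covers 39 of the 4929 exon bases of Tirap (0.79%) and rose (log2 fold change 0.26, limma adjusted p = 3.2e-04).

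Of the IRAK genes, Irak3 rose, Irak1 and Irak2 fell, and Irak4 did not pass the test. Irak3 (ENSMUSG00000020227, chromosome 10, 120141648 to 120202130, minus strand) encodes IRAK-M, a family member without kinase activity that in mouse macrophages restrains signalling. Its levels were 1338.5, 1525.0 and 1543.4 normalized reads in the NUR77 libraries, against 170.7, 184.6 and 160.1 in the GFP libraries. The lowest NUR77 library was thus far above the highest GFP library. The means were 1469 ± 113 in the NUR77 line and 172 ± 12.3 in the GFP line (SD, n = 3 each), and the log2 fold change was 3.09 (SE 0.07, limma adjusted p = 1.1e-15). The 95% interval of the fold was 7.64 to 9.46, and Irak3 ranked 292 of 11201 by size of change.

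Tmbim4 starts within the first part of Irak3 and runs the other way, sharing 192 of the 3676 exon bases of Irak3 (5.22%). It was at 372 ± 42.2 normalized reads in the NUR77 line and 390 ± 2.43 in the GFP line, and did not pass the test (log2 fold change -0.08, 95% interval -0.24 to 0.09, limma adjusted p = 0.4). Its 3 NUR77 values (342.9, 351.8 and 420.1) lay on both sides of the 3 GFP values (390.2, 388.0 and 392.8).

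Irak1 (ENSMUSG00000031392, chromosome X, 74013914 to 74023918, minus strand), the kinase that IRAK4 activates and that binds TRAF6, fell. It had 915.2, 881.3 and 931.6 normalized reads in the NUR77 libraries, against 1519.8, 1507.3 and 1515.7 in the GFP libraries. Spread within a line was small, at ± 25.7 in the NUR77 line and ± 6.39 in the GFP line (SD, n = 3 each). The log2 fold change was -0.74 (SE 0.05, limma adjusted p = 1.2e-09).

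Irak2 (ENSMUSG00000060477, chromosome 6, 113638467 to 113695026, plus strand), which in mouse macrophages prolongs the response after IRAK1, also fell. Its levels were 896.5, 946.0 and 1053.4 normalized reads in the NUR77 libraries, against 1377.0, 1365.4 and 1351.6 in the GFP libraries. The groups did not overlap, and NUR77 replicate 3 was closest to the GFP line. The log2 fold change was -0.50 (SE 0.06, limma adjusted p = 1.3e-06).

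Irak4 (ENSMUSG00000059883, chromosome 15, 94543643 to 94581815, plus strand), the kinase at the head of the complex, had 250.0, 273.8 and 260.2 normalized reads in the NUR77 libraries, against 255.7, 294.4 and 262.1 in the GFP libraries. The values overlapped. The fold was 0.966 with a 95% interval of 0.860 to 1.09 (log2 fold change -0.05, limma adjusted p = 0.6). Twf1, on the opposite strand, covers 395 of the 5021 exon bases of Irak4 (7.87%) and fell (log2 fold change -0.19, limma adjusted p = 0.017), with a p of 0.061 without NUR77 replicate 2 and 0.092 without GFP replicate 1.

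Traf6 (ENSMUSG00000027164, chromosome 2, 101678429 to 101701669, plus strand), the ubiquitin ligase downstream of the IRAK kinases, had 566.1, 568.5 and 622.2 normalized reads in the NUR77 libraries, against 894.7, 932.2 and 827.5 in the GFP libraries. All NUR77 values lay below all GFP values, with a log2 fold change of -0.59 (SE 0.06, limma adjusted p = 2.8e-07). Tollip (ENSMUSG00000025139, chromosome 7, 141874813 to 141918507, minus strand), which binds IRAK1 and also sorts cargo at endosomes, had 955.4, 895.2 and 916.5 normalized reads in the NUR77 libraries, against 1434.1, 1317.7 and 1376.5 in the GFP libraries. It fell by 0.58 on the log2 scale (SE 0.05, limma adjusted p = 6.9e-08). The 2 genes known as brakes, Irak3 and Tollip, therefore moved in opposite directions.

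Per kilobase of exon and in the deposited scaling, the sum of the IRAK transcripts was 1.18 times as high in the NUR77 line, and its makeup differed. The size of this ratio depends on the exon lengths and on the scaling between libraries. Levels were divided by exon length, since longer genes collect more reads. The 4 IRAK genes together had 811, 871 and 908 normalized reads per kilobase of exon in the NUR77 libraries, against 732, 738 and 724 in the GFP libraries. Irak3 made up 44.9%, 47.6% and 46.2% of this sum in the NUR77 libraries, against 6.35%, 6.80% and 6.02% in the GFP libraries. The shares of Irak1 were 22.4% ± 1.34 in the NUR77 line and 43.9% ± 0.564 in the GFP line, and those of Irak2 were 25.3% ± 0.867 in the NUR77 line and 42.3% ± 0.358 in the GFP line (SD, n = 3 each). Irak4 held 6.04% ± 0.292 of the sum in the NUR77 line and 7.37% ± 0.512 in the GFP line. Shares within a library do not depend on the scaling between libraries, but a rise of 1 gene lowers the shares of the others. Within each library, Irak3 was 7.31, 7.61 and 8.10 times Irak4 per kilobase in the NUR77 line, against 0.912, 0.856 and 0.835 times in the GFP line.

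Ticam1 held the largest adaptor share in the NUR77 line and Myd88 in the GFP line. The 4 adaptors summed to 478, 500 and 496 normalized reads per kilobase in the NUR77 libraries, against 440, 437 and 459 in the GFP libraries. Ticam1 made up 43.8%, 45.2% and 46.7% of the sum in the NUR77 libraries, against 26.5%, 21.8% and 22.6% in the GFP libraries. Myd88 held 33.7% ± 1.29 in the NUR77 line and 44.9% ± 1.83 in the GFP line, and Ticam2 held 9.01% ± 0.714 in the NUR77 line and 17.5% ± 0.435 in the GFP line (SD, n = 3 each). Tirap held 12.1% ± 0.860 in the NUR77 line and 14.0% ± 0.548 in the GFP line. The ratio of Ticam1 to Myd88 per kilobase was 1.26 to 1.45 in the NUR77 libraries and 0.475 to 0.620 in the GFP libraries. For all 8 shares the lines did not overlap, and the exact two-sided permutation test gave p = 0.1 for each (0.1 adjusted over the 8), the smallest value that 3 against 3 libraries allow, so this test could not reach 0.05. Without the length correction, the difference in the share of Myd88 was -6.49 percentage points instead of -11.3, and that of Ticam2 was -12.7 instead of -8.44.

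**Figure D3:**
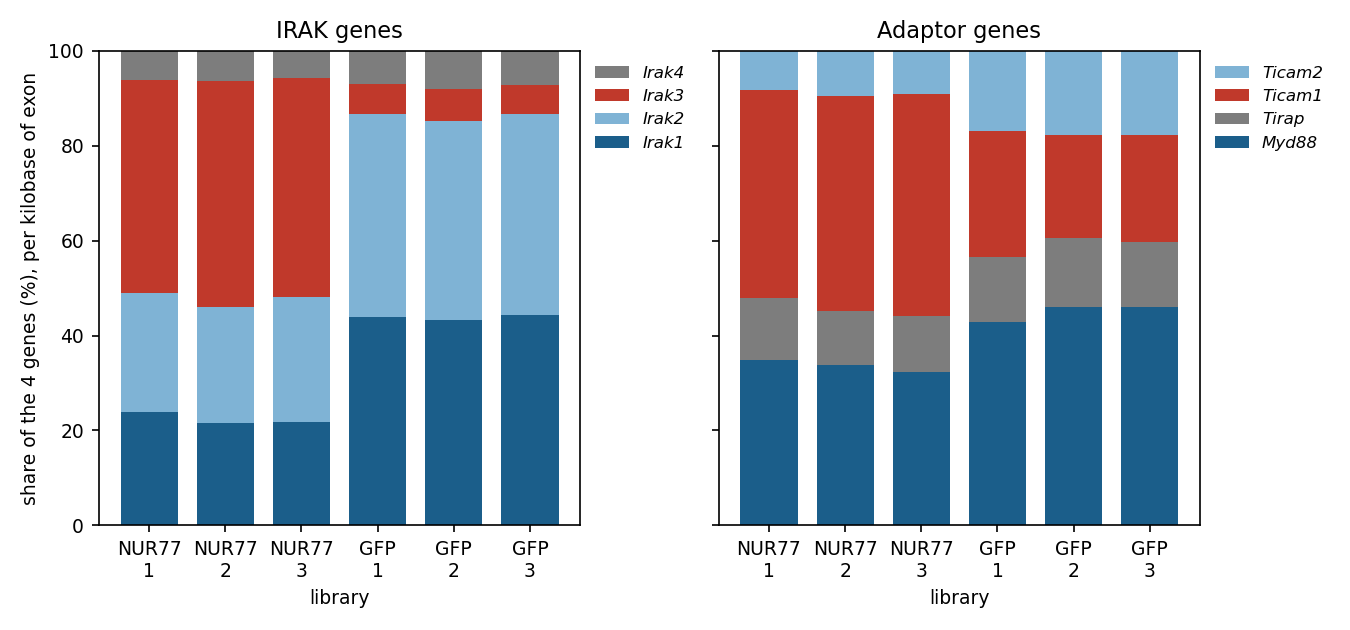
Share of each gene (%) in the sum of the 4 IRAK genes (left) and of the 4 adaptor genes (right), in normalized reads per kilobase of exon, 1 bar per library, NUR77 libraries left of GFP libraries. Irak3 takes 44.9% to 47.6% of the IRAK sum in the NUR77 line and 6.02% to 6.80% in the GFP line; Ticam1 takes 43.8% to 46.7% of the adaptor sum in the NUR77 line and 21.8% to 26.5% in the GFP line.

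Ordered by level per kilobase, Irak3 was first of the 10 genes in the NUR77 line and last in the GFP line. In the NUR77 line the order was Irak3 (400 ± 30.8 normalized reads per kilobase), Ticam1 (222 ± 11.6), Irak2 (219 ± 18.2), Irak1 (193 ± 5.45), Tollip (182 ± 6.03), Myd88 (165 ± 4.42), Traf6 (74.3 ± 4.02), Tirap (59.3 ± 2.79), Irak4 (52.0 ± 2.38) and Ticam2 (44.3 ± 4.5). The libraries of Ticam1 and Irak2 overlapped there, as did those of Irak1 and Tollip. The place of Ticam1 rests on the exon lengths used. Without the length correction, Irak3 stayed first in the NUR77 line (1469 normalized reads), but Irak2 (965), Tollip (922) and Irak1 (909) stood above Ticam1 (665). In the GFP line the order was Irak1 (321 ± 1.36), Irak2 (309 ± 2.87), Tollip (272 ± 11.5), Myd88 (200 ± 11.4), Traf6 (112 ± 6.73), Ticam1 (105 ± 10.8), Ticam2 (77.7 ± 3.49), Tirap (62.2 ± 1.73), Irak4 (53.9 ± 4.13) and Irak3 (46.7 ± 3.33), with Traf6 and Ticam1 overlapping. Irak4 and Tirap, which did not pass the test between lines, were near the low end in both.

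**Figure D4:**
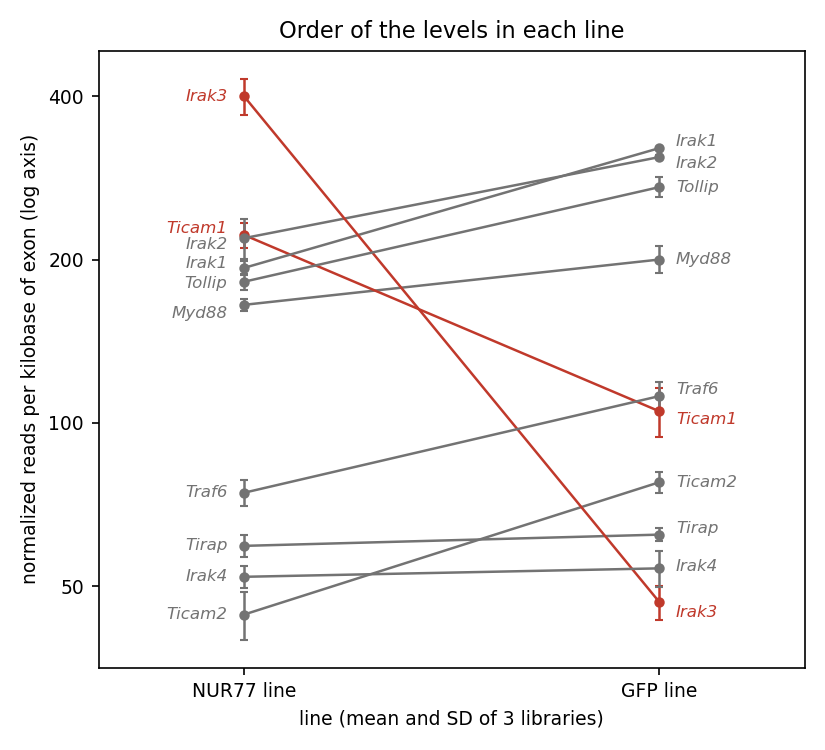
Mean normalized reads per kilobase of exon (log axis) of each gene in the NUR77 line (left) and the GFP line (right), joined by a line, with SD over 3 libraries as error bars; the genes that rose are in red. Irak3 stands at 400 in the NUR77 line and 46.7 in the GFP line, and the crossing lines show the change in order.

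The 24 tested genes nearest to Irak3, 12 on each side, had a median log2 fold change of 0.01, with 9 higher and 8 lower. Around Ticam1 the median was 0.23 (13 higher, 5 lower). For the genes that fell, the medians were 0.10 around Ticam2, 0.01 around Myd88, -0.06 around Traf6, -0.08 around Tollip and -0.17 around Irak1 (6 higher, 12 lower). Around Irak2 the median was -0.29, with 4 neighbours higher and 13 lower. Around Ticam1, Irak1 and Irak2 most called neighbours went the way of the gene itself. The same held by a smaller margin around Tollip (5 higher, 7 lower), Traf6 (8 higher, 9 lower) and Irak3. Over all tested genes 38.4% were called higher and 28.3% lower. The part of these stretches in the changes of the genes was not tested. Several of these medians moved when 6 genes on each side were taken, with -0.44 around Irak2, -0.53 around Tollip (where Tollip itself stood at -0.58), -0.03 around Irak1 and -0.08 around Ticam1.

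Around the 10 genes, the rest of the pathway went both ways. In 6 lists of 76 other pathway genes, 63 were tested, of which 31 rose and 21 fell, with a median log2 fold change of 0.13. Over all tested genes 38.4% were called higher and 28.3% lower, with a median of 0.06, and each list below is to be read beside these shares. Of 16 tested receptors and accessory proteins, 10 fell, 4 rose and 2 were not called (median -0.34), against 28.3% lower and 38.4% higher over all tested genes. Tlr13, a mouse receptor for bacterial ribosomal RNA, fell to 366 ± 48.1 normalized reads in the NUR77 line, against 1784 ± 90.4 in the GFP line (log2 fold change -2.29). Tlr7 (-1.61) and Tlr8 (-1.73), receptors for single-stranded RNA, fell as well. Tlr1, a partner of Toll-like receptor 2, rose (1.40), as did Tlr9 (0.58), a receptor for unmethylated DNA, and the chaperone Hsp90b1 (0.61); each of these 6 had a limma adjusted p of 4.1e-04 or less. Of the receptors that TRIF serves, Tlr4 stood at 1185 ± 88.2 in the NUR77 line and 1484 ± 97.8 in the GFP line (-0.33, limma adjusted p = 2.6e-04), and Tlr3 did not pass (-0.26, limma adjusted p = 0.15).

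Of the interleukin-1 family receptors, 4 of 8 were tested, 2 rose and 1 fell (median 0.26), where 66.7% of all tested genes were called. Il1rap, the shared accessory chain, was at 334 ± 4.27 normalized reads in the NUR77 line and 225 ± 10.7 in the GFP line (log2 fold change 0.57, limma adjusted p = 3.0e-06). Il1rl1, the interleukin-33 receptor, fell (-0.51, limma adjusted p = 5.1e-04). Sigirr, an inhibitory receptor, was called higher (0.41, limma adjusted p = 0.02) although the lines overlapped, at 107.1, 129.6 and 152.8 in the NUR77 line against 101.7, 79.1 and 111.8 in the GFP line. Its call was lost without NUR77 replicate 2 (0.059), without NUR77 replicate 3 or GFP replicate 2 (0.11 each) and without the limma trend (0.079).

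Among the kinase and ubiquitin steps after the IRAK kinases and Traf6, 5 of 12 tested genes rose and 3 fell (median 0.09), against 38.4% higher and 28.3% lower over all tested genes. The 5 rises became 2 under each of the other 3 scalings and without GFP replicate 3, and 3 without GFP replicate 1 or without the limma trend. Map3k8, the kinase TPL2, was at 188 ± 22.1 normalized reads in the NUR77 line and 54.4 ± 6.41 in the GFP line (log2 fold change 1.77, limma adjusted p = 1.7e-09). Ecsit, a TRAF6-binding protein, rose by 0.59 and Peli1, an IRAK-directed ubiquitin ligase, by 0.21. Peli1 (limma adjusted p = 0.015) lost its call under the other scalings (0.066 to 0.10) and without GFP replicate 3 (0.083). Tifa (-0.56), a TRAF6 activator, Ikbkg (-0.47), the scaffold of the IKK complex, and Map3k7 (-0.26), which encodes TAK1, fell.

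In the TRIF branch 7 of 12 genes rose and 3 fell (median 0.17), against 38.4% higher and 28.3% lower over all tested genes; under TMM and upper-quartile scaling 4 rose and 5 fell. Ikbke, a kinase that acts on interferon regulatory factors, was at 953 ± 44.2 normalized reads in the NUR77 line and 383 ± 7.90 in the GFP line (log2 fold change 1.31, limma adjusted p = 4.3e-12). Ripk3 (0.69), a kinase of necroptosis, and Tank (0.41), a TBK1 scaffold, rose. Fadd, a death-domain adaptor, fell to 91.0 ± 16.7 in the NUR77 line, against 241 ± 27.2 in the GFP line (-1.41, limma adjusted p = 6.8e-08). Tbkbp1 (-0.22) and Irf3 (-0.16) fell by little, and the call on Irf3 (limma adjusted p = 0.042) was lost when any single library other than NUR77 replicate 2 was left out (0.051 to 0.12).

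Of 14 tested inhibitors of the pathway, 10 rose, 2 fell and 2 were not called (median 0.32, mean 0.99), against 38.4% higher and 28.3% lower over all tested genes. Trim30a was at 542 ± 30.8 normalized reads in the NUR77 line and 19.1 ± 1.53 in the GFP line (log2 fold change 4.75), a value that is uncertain because of its close paralogs. Zc3h12a, the RNase regnase-1, was at 870 ± 67.7 in the NUR77 line and 119 ± 10.9 in the GFP line (2.86). Tnip1, a partner of the deubiquitinating protein A20, was at 2717 ± 82.6 in the NUR77 line and 613 ± 17.1 in the GFP line (2.15). These 3 rises each had a limma adjusted p of 1.5e-14 or less. Rnf41 (-0.52) and Tnfaip8l2 (-0.23) fell. The other TRAF genes all passed, with 3 higher and 2 lower of 5 (median 1.07), where 66.7% of all tested genes passed. Traf1, an NF-kB target, was at 627 ± 80.6 in the NUR77 line and 20.2 ± 0.555 in the GFP line (4.88, limma adjusted p = 9.7e-16), and Traf4 (1.73) and Traf2 (1.07) rose. Traf7 (-0.50) fell like Traf6, and Traf5 (-0.31) fell with a limma adjusted p of 0.044, which was 0.08 to 0.14 without NUR77 replicate 2, NUR77 replicate 3, GFP replicate 1 or GFP replicate 2.

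**Figure D5:**
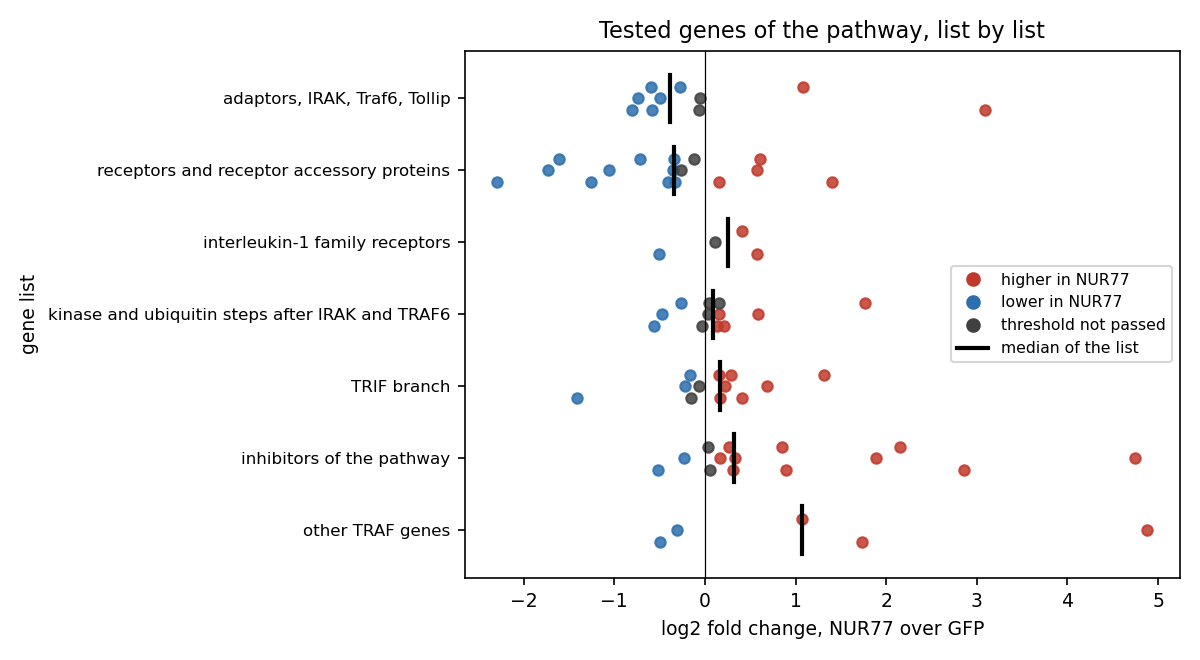
Log2 fold change (NUR77 over GFP) of every tested gene of the 10 and of the 6 pathway lists, 1 point per gene coloured by its call, with the median of each list as a black bar. Medians run from -0.39 for the 10 genes to 1.07 for the other TRAF genes.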

How the data were processed

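Libraries were stranded and poly(A)-selected, per the labels' protocols. The authors deposited a log2 value per gene and library. The submitters' processing notes name TopHat2 2.1, HTSeq and DESeq2 with mm10, but neither their roles nor the use of strand in counting. The values equal log2 of reads per 10000000 plus 1, and gave whole reads for 100% of values within 0.1 read. Names (22872 of 23154 identifiers), places and exon lengths (all exons of a gene merged) came from GENCODE mouse release M21 (GRCm38, which is mm10).

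Genes whose libraries averaged at least 10 normalized reads entered limma (version 3.58.1, R 4.3.3) as log2(normalized reads + 1). The fit had a trend on the mean, robust moderation, no covariates and Benjamini-Hochberg adjustment over all 11201 genes. Fold changes are on that scale, which understates changes of low genes. The procedure was tested on simulated data in which few genes changed, with as many rises as falls. That test does not cover a comparison where most genes differed. Chi-square per degree of freedom was at least 2.39 between libraries of a line, so none was a duplicate. Members and lists were chosen with earlier results of these data known. Named pathway genes are up to 3 rises and 3 falls per list by size, among called genes averaging at least 50 in the line where they were higher, with no overlap; Tlr3, Tlr4, Sigirr and genes that overlap members were named after their values were seen. Alternatives were pseudocounts of 0.5 and 5, other filters, TMM, upper-quartile and median-of-ratios scaling, limma without trend, limma-voom on recovered reads, a replicate block, and each library left out.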

Additional observations from a re-analysis of the deposited data

How the results depend on the processing

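The 2 rises and 6 falls among the 10 genes were called under each of the 16 alternatives of the limma comparison, with log2 fold changes of 3.01 to 3.15 for Irak3, 1.01 to 1.16 for Ticam1 and -0.89 to -0.73 for Ticam2. Tirap (adjusted p = 0.091 to 0.69) and Irak4 (0.19 to 0.91) passed in none, and the log2 fold change of Irak4 was -0.09 to 0.01 without single libraries, turning positive without GFP replicate 2. Ptprc, at 0.03, stood at -0.05 under TMM, -0.04 under upper-quartile and -0.03 under median-of-ratios scaling, and passed in none. Over the pathway lists, 23 genes rose and 23 fell under TMM and upper-quartile scaling (23 and 22 under median-of-ratios), against 31 and 21; over all genes TMM gave 3612 higher and 3835 lower. Leaving out single libraries gave 25 to 29 rises and 19 to 21 falls. The cause was not tested. Every share kept its direction without length correction, per longest transcript and without each library. With 6 neighbours on each side the medians moved to -0.07 around Tirap, -0.08 around Ticam1, 0.04 around Ticam2, -0.03 around Irak1, -0.44 around Irak2, 0.12 around Irak3, 0.23 around Irak4 and -0.53 around Tollip.

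The replicate numbers were not shown to pair the dishes, since deviations of same-numbered libraries correlated across genes at 0.002, 0.114 and 0.045. With the replicate block 2 of the 10 genes rose and 6 fell, 31 pathway genes rose and 20 fell, and Traf5 lost its call (adjusted p = 0.051).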
